A study of Mus musculus with 6 samples.

Results

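The genes described here are 7 genes of antigen presentation on major histocompatibility complex (MHC) class II: the chains H2-Aa, H2-Ab1 and H2-Eb1, the invariant chain Cd74, the peptide exchange subunits H2-DMa and H2-DMb1, and the transactivator Ciita. They were taken by symbol from the deposited count table, where all 7 had a row among 23845 genes, and all 7 passed the filter on low counts that left 13935 genes for testing. The 6 RNA-seq libraries come from mouse intestinal epithelial cells and form 3 groups of 2. EGFP cells carry 1 allele of Neurog3, the transcription factor of enteroendocrine commitment (genotype Neurog3+/-EGFP, strain C57BL6), and EYFP cells carry 2 (genotype Neurog3+/+EYFP, mixed C57BL6 and CD1); per the series' design text, both were sorted as Neurog3-expressing cells. The wild-type libraries (strain C57BL6) carry no reporter in their labels, and their titles point to duodenum. The labels give neither the age nor the sex of the mice, nor whether animals were pooled. Strain, reporter and allele number differ together between EGFP and EYFP cells and cannot be told apart. In mm10, Ciita lies on chromosome 16 (10480014 to 10531064) and Cd74 on chromosome 18 (60803849 to 60812652). The other 5 lie in the H2 complex of chromosome 17: H2-DMa (34119693 to 34139101), H2-DMb1 (34153191 to 34160229), H2-Ab1 (34263227 to 34269418), H2-Aa (34282744 to 34287823) and H2-Eb1 (34305867 to 34316674). Nothing in the labels says that the replicates came from separate animals, so p-values measure the spread between these libraries.

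Class II molecules are heterodimers of an alpha and a beta chain that show peptides from the endocytic route to CD4+ T cells. The invariant chain, encoded by Cd74, guides them out of the endoplasmic reticulum and fills the peptide groove until the H2-DM dimer exchanges its remnant for peptide. Ciita does not bind DNA itself. It docks on factors that sit on the X and Y boxes of class II promoters, and interferon gamma induces it in cells that do not make it constitutively. Dendritic cells, macrophages and B cells express class II constitutively, and the small intestinal epithelium is among the non-immune tissues known to express it.

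The X and Y boxes can be read in the promoter windows that RefSeq gives for these genes (GRCm38.p6, the assembly of mm10), and they are shown because they are the shared feature through which Ciita acts. The table held a window for H2-Aa, H2-Eb1, H2-DMb1, H2-DMa and the neighbouring gene H2-DMb2. The letters CTNNNAAC, a loose form of the X box, and GATTGG, which holds the inverted CCAAT of the Y box, are in capitals below; the loose form and the spacing were written after reading these windows. The stretches lie at chr17:34287855-34287919 on the minus strand for H2-Aa, and on the plus strand at chr17:34305761-34305824 for H2-Eb1, chr17:34153082-34153146 for H2-DMb1 and chr17:34145111-34145175 for H2-DMb2.
H2-Aa: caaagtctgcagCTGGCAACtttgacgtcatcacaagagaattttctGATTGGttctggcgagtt
H2-Eb1: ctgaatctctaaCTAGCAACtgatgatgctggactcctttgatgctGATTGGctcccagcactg
H2-DMb1: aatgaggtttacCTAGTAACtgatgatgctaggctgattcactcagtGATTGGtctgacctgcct
H2-DMb2: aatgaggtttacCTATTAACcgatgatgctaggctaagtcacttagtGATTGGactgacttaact
The gap between the capitals was 26 bases in H2-Eb1 and 27 bases in the other 3. With a gap of 24 to 30 bases, on either strand, the pair of letter patterns occurred in 36 of 32851 RefSeq windows of 300 bases (0.11%). CTNNNAAC alone was in 41.1% of windows and GATTGG alone in 16.1%. Neither of the 2 windows listed for H2-DMa held the pair.

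Total estimated counts ranged from 7938358 to 20589683 per library, so that 1 count stood for 0.0603 to 0.121 CPM (CPM is a gene's count scaled to a common library size, after TMM adjustment of the totals). The epithelial label was borne out by the markers in every library: summed levels of 8 epithelial genes such as Epcam, Cdh1 and Krt8 were 6380 to 13100 CPM. The wild-type libraries differed from each other for the class II genes, and this bears on every comparison below. Cd74 had 1790 CPM in wild-type replicate 1 but only 139 CPM in its partner, a 12.8-fold gap. For H2-Aa, the alpha chain of the A molecule, the gap was 11.9-fold (505 and 42.5 CPM). Ciita itself was 4.36-fold apart, at 62 and 14.2 CPM. H2-DMa had the smallest gap of the 7, 3.32-fold. All 7 genes were at 3-fold or more in replicate 1 over replicate 2, against 50 of 9376 genes with 10 CPM or more on average in wild type (0.533%). With 1 library on each side this is a description without a test.

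The other pathway lists differed less in the wild-type pair, where every one of their genes at 1 CPM or more in wild type lay between 0.548 and 1.46. The 7 genes of the promoter complex on which Ciita docks, among them Rfx5 and Nfya, had folds of 0.944 to 1.08 between replicate 1 and replicate 2. The 8 genes of interferon gamma signalling spanned that whole range, from Socs1, a feedback inhibitor, at 2.25 and 4.1 CPM to Ifngr1 at 217 and 149 CPM. The 6 processing genes had folds of 0.737 to 1.2, and the 3 genes of costimulation and turnover at that level also lay inside the range. The 7 class I genes examined, chosen after their values were seen and including B2m and the class I transactivator Nlrc5, had folds of 0.797 to 1.28. T cell and intraepithelial lymphocyte markers summed to 490 CPM in replicate 1 and 549 CPM in replicate 2. Enterocyte markers summed to 22500 and 36300 CPM, and crypt stem cell markers to 1650 and 1070 CPM. Stromal and endothelial markers summed to 1.75 and 27 CPM, with the collagen gene Col3a1 at 0.167 and 12.3 CPM, so that they were higher in the library with less class II. The part of these cells in the gap was not tested. Sex-linked transcripts also differed in the wild-type pair: Xist, made from the inactive X of females, had 1.17 and 726 CPM in replicates 1 and 2, and the Y-linked Ddx3y 62.4 and 0.121 CPM. The sorted groups differed in the same transcripts: Xist was at 966 and 969 CPM in EGFP against 0.634 and 2.36 CPM in EYFP, and Ddx3y at 0 and 0 against 37.3 and 39.3 CPM. In wild type the library with Ddx3y had the higher summed class II level, whereas the sorted group with Ddx3y had the lower. The part of sex in the wild-type gap was not tested, and between EGFP and EYFP it cannot be told apart from genotype.

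**Figure D1:**
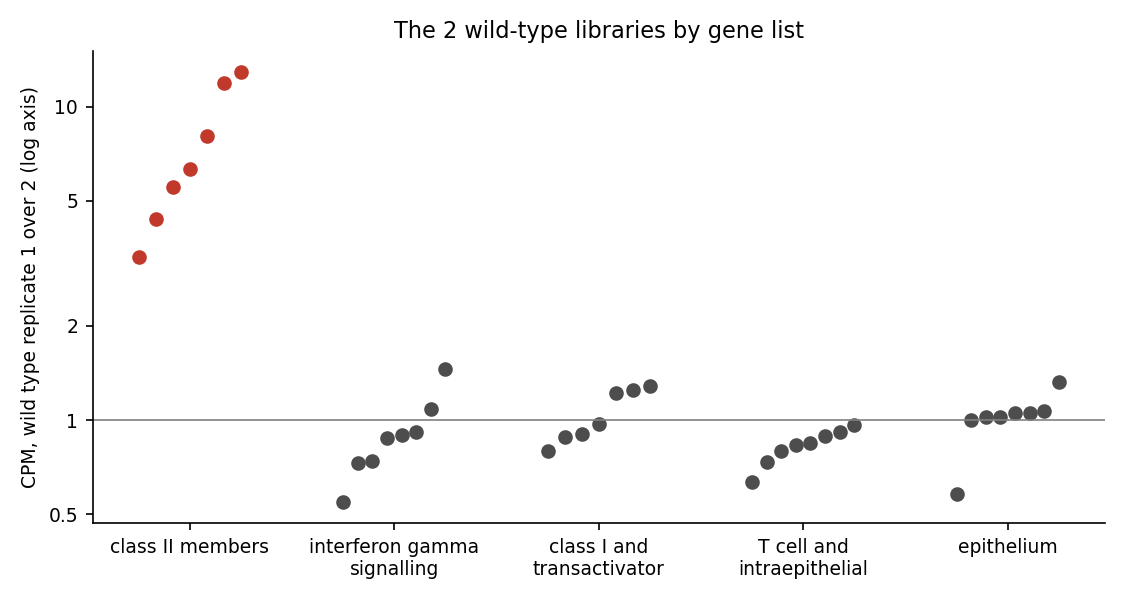
Ratio of the CPM in wild-type replicate 1 to that in replicate 2 (log axis), 1 point per gene, for 5 gene lists. The 7 class II genes lie at 3.32 to 12.8, while the class I list lies at 0.797 to 1.28 and the epithelial list at 0.58 to 1.33.

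In the sorted cells the class II genes were lowest in EYFP. Both EYFP libraries lay below both EGFP libraries for 6 of the 7 genes, where 37% of all genes tested did so, and H2-Eb1 was the exception. Both lay below both wild-type libraries for 7 of 7, where 45% of all genes tested did so. The EGFP libraries lay between the wild-type libraries for 5 genes. In bulk RNA, fewer cells with class II transcripts and less transcript per cell cannot be told apart.

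Of the chains, H2-Ab1, the beta chain of the A molecule, stood at 130 and 106 CPM in EGFP, 31.6 and 17 CPM in EYFP, and 551 and 87.3 CPM in wild type. The order was thus wild-type replicate 1, the EGFP libraries, wild-type replicate 2 and the EYFP libraries. Its alpha partner H2-Aa followed the same order, at 114 and 65.8 CPM in EGFP against 20.4 and 3.53 CPM in EYFP. Here the EYFP libraries were 5.76-fold apart, the widest gap of the 7 genes in EYFP. Set against each other per kb of transcript, H2-Aa was at 94.5% and 66.8% of H2-Ab1 in EGFP, 69.3% and 22.3% in EYFP, and 98.5% and 52.3% in wild type.

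Cd74, the most abundant of the 7 per kb in 5 of the 6 libraries (H2-Ab1 was higher in EYFP replicate 2), stood at 453 and 306 CPM in EGFP and at 49.8 and 15.9 CPM in EYFP. Neither EYFP library came near the lower EGFP library. H2-DMa stood at 32.8 and 23.5 CPM in EGFP and at 4.09 and 3.87 CPM in EYFP, with little spread inside either group. H2-DMb1, the beta subunit of the same exchange factor, went from 29.1 and 18.7 CPM to 3.52 and 1.93 CPM. Ciita stood at 20.6 and 7.61 CPM in EGFP and at 1.41 and 1.35 CPM in EYFP. Those EYFP levels rest on 20 and 16 counts.

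**Figure D2:**
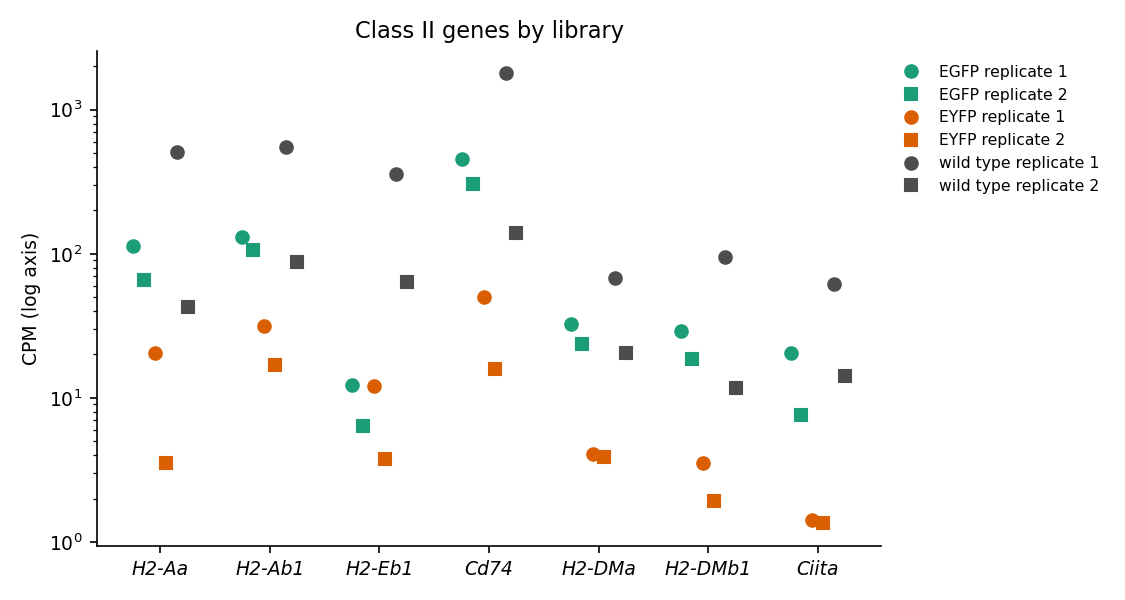
CPM (log axis) of the 7 class II genes in each of the 6 libraries, coloured by group, circles for replicate 1 and squares for replicate 2. EYFP libraries lie below EGFP for every gene but H2-Eb1, and wild-type replicate 1 lies above all other libraries, with Cd74 at 1790 CPM against 139 CPM in replicate 2.

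The first comparison set EYFP cells against EGFP cells, that is 2 Neurog3 alleles against 1. In the model over all 6 libraries, 1 of the 7 genes was lower at an edgeR adjusted p under 0.05 and 0 were higher, where 19.4% of all genes tested were lower. That gene was H2-DMa, whose mean was 28.2 ± 6.58 CPM (SD, n = 2) in EGFP and whose EYFP mean was 3.98 ± 0.154 CPM. Its log2 fold change was -2.81 ± 0.61 (SE), with an edgeR adjusted p of 0.017. Leaving out EGFP replicate 1 ended this call (adjusted p = 0.085), as did leaving out either EYFP library (0.11 for each) or testing with no filter on low counts (0.085). At an unadjusted edgeR p under 0.05 there were 2 of the 7 genes, beside 6493 of the 13935 genes tested. The median log2 fold change of the 7 was -2.89, beside 0.01 over all genes tested.

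The wild-type libraries enter this fit only through the scaling, the filter and the spread. In the fit to the 4 libraries compared, 5 of the 7 genes fell in EYFP cells, where 21.9% of all genes tested were lower. The estimates hardly moved. H2-Ab1 had a log2 fold change of -2.27 ± 0.31 (edgeR adjusted p = 0.0042) in that fit and of -2.27 ± 0.98 (adjusted p = 0.15) in the fit over 6 libraries. Cd74 had -3.52 ± 0.71 (adjusted p = 0.032) against -3.53 ± 1.47 (adjusted p = 0.15). For Ciita the adjusted p was 0.0055 against 0.054, and for H2-DMb1 it was 0.0013 against 0.12. H2-Aa did not pass in either fit (-2.88 ± 0.98, adjusted p = 0.11 with 4 libraries). With either wild-type library alone left out the estimates again hardly moved, with -2.28 for H2-Ab1 and -3.53 for Cd74. In the authors' deposited table, the fold of EYFP over EGFP was 0.0859 for Cd74, 0.0973 for Ciita and 0.851 for H2-Eb1. That table's adjusted p was under 0.05 for 6 of the 7 genes, all but H2-Eb1, where 18.7% of its genes with a p were called lower.

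**Figure D3:**
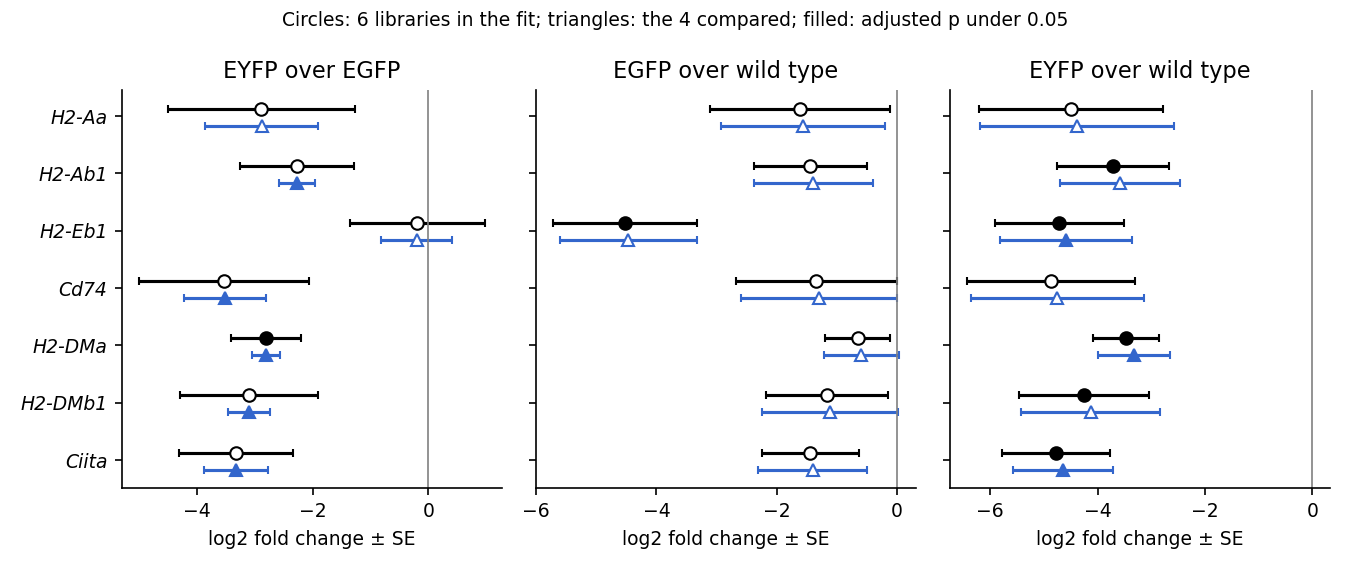
Log2 fold changes with their SE for the 7 class II genes in the 3 comparisons, from the fit over 6 libraries (circles) and over the 4 libraries compared (triangles), filled where the edgeR adjusted p is under 0.05. The estimates coincide in the first panel while the SE of H2-Ab1 goes from 0.98 to 0.31.

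EGFP cells against wild type asks how Neurog3-expressing cells with 1 allele differ from the epithelium. Of the 7 genes, 1 was lower (H2-Eb1) and 0 were higher, where 21.9% of all genes tested were lower. The median log2 fold change was -1.44, beside 0 over all genes tested. Only H2-Eb1 had both EGFP libraries below both wild-type libraries, as did 36.2% of all genes tested. For 5 of the others the direction depended on the wild-type library. Without wild-type replicate 1 they had positive log2 fold changes, from 0.43 for H2-Ab1 to 1.45 for Cd74, and none of these passed the test. Ciita kept a negative value, with -0.03 without replicate 1 and -2.16 without replicate 2. Without wild-type replicate 2 all 7 genes had negative values, from -1.28 for H2-DMa to -5.29 for H2-Eb1.

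EYFP cells were then set against wild type. Of the 7 genes, 5 fell and 0 rose, where 33.5% of all genes tested were lower. The median log2 fold change was -4.50, beside -0.12 over all genes tested. H2-DMa averaged 44.3 ± 33.6 CPM in wild type and 3.98 ± 0.154 CPM in EYFP, and fell by 3.47 ± 0.62 on the log2 scale (edgeR adjusted p = 0.004). Ciita averaged 38.1 ± 33.8 and 1.38 ± 0.0449 CPM, and fell by 4.77 ± 1 (adjusted p = 0.01). H2-Ab1, H2-DMb1 and H2-Eb1 also passed, with adjusted p of 0.037, 0.037 and 0.03, whereas Cd74 (0.059) and H2-Aa (0.096) did not. The size rested on wild-type replicate 1: without it, H2-DMa had -2.37, Ciita -3.36, H2-Ab1 -1.84, H2-DMb1 -2.10 and H2-Eb1 -3.01, and all 5 still passed. Without wild-type replicate 2 they had -4.10, -5.48, -4.50, -5.10 and -5.48. Without EYFP replicate 1 or EYFP replicate 2, only H2-DMa passed (adjusted p = 0.044 and 0.042), as with no filter on low counts (0.033), and H2-Eb1 had -5.78 without the first. Without EGFP replicate 1, H2-Ab1 and H2-DMb1 were lost (0.061 and 0.063), and without EGFP replicate 2, H2-Eb1 as well (0.062). The fit to the 4 libraries compared also left H2-Ab1 and H2-DMb1 short of the threshold (0.061 and 0.063).

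H2-Eb1, the beta chain of the E molecule, did not follow the other class II genes. It stood at 355 and 64 CPM in wild type, at 12.2 and 6.34 CPM in EGFP and at 12 and 3.79 CPM in EYFP, so that the sorted groups overlapped. EGFP cells were lower than wild type by a log2 fold change of -4.52 ± 1.2 (edgeR adjusted p = 0.048), with -5.29 without wild-type replicate 2 and -2.81 without replicate 1. That call was lost without any 1 of the 4 sorted libraries (adjusted p from 0.084 to 0.21) and in the fit to 4 libraries (0.055) and with no filter (0.11). EYFP and EGFP cells had a log2 fold change of -0.19 ± 1.17 (adjusted p = 0.92), with 0.38 without EGFP replicate 1, 0.39 without EYFP replicate 2 and -1.27 without EYFP replicate 1.

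The ratio of H2-Eb1 to H2-Ab1 within a library does not depend on scaling. Per kb of transcript, H2-Eb1 was at 46.8% of H2-Ab1 in wild-type replicate 1 (95% exact counting interval 45.1 to 48.7) and 53.3% in replicate 2 (49.2 to 57.7). The wild-type libraries, so far apart in level, were thus alike in this ratio. In EGFP cells it was 6.82% (5.51 to 8.37) and 4.35% (3.40 to 5.49), and in EYFP cells 27.6% (23.0 to 32.9) and 16.2% (11.4 to 22.4). In both sorted groups the ratio was higher in replicate 1, the library with more class II RNA. The 3 groups did not overlap. EGFP was 9.17-fold and EYFP 2.37-fold below wild type, and EYFP was above EGFP by 1.95 on the log2 scale. With 2 libraries against 2 the exact permutation test (two-sided) gave p = 0.333 for each pair of groups, the smallest it can give. The intervals cover counting error only.

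Another pair of class II genes had counts in the sorted libraries and none in wild type. H2-DMb2 lies beside H2-DMb1 and encodes a second beta subunit for the exchange factor. It had 0 counts in both wild-type libraries, 86 and 100 counts in EGFP and 11 and 4 counts in EYFP. With wild type set to 3 counts in all as its floor, EGFP was at least 88.1-fold higher (51.1 and 37.0 without wild-type replicates 1 and 2). EYFP was at least 5.48-fold above wild type (3.18 and 2.30 without wild-type replicates 1 and 2, and 3.21 without EYFP replicate 1). The gene passed the filter on low counts only through EGFP, where it is high, so that these levels are given with no test. As a share of the H2-DMb1 and H2-DMb2 counts, H2-DMb2 was 26.3% (95% exact interval 21.6 to 31.4) and 31.2% (26.1 to 36.5) in EGFP and 18% (9.36 to 30) and 14.8% (4.19 to 33.7) in EYFP. In wild type it was 0 of 1139 and 0 of 196 counts, with 95% exact intervals up to 0.323% and 1.86%. The 2 genes are close copies, and how reads common to both were divided can move these shares. With both summed, the log2 fold change was -3.32 for EYFP against EGFP (adjusted p = 0.1) and -3.99 for EYFP against wild type (0.044).

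H2-Ea-ps is the row for the alpha chain partner of H2-Eb1, which lies on the same chromosome at 34341952 to 34344645 in mm10 and is annotated as a transcribed pseudogene in that C57BL/6J assembly. C57BL/6 mice are known to make no E alpha chain. The row had 0 counts in both wild-type libraries, 16 and 7 counts in EGFP and 4 and 1 counts in EYFP, and it did not pass the filter. The EGFP level was at least 10.9-fold above wild type (6.32 and 4.58 without wild-type replicates 1 and 2, 5.64 and 18.4 without EGFP replicates 1 and 2). Class II genes vary greatly between mouse strains, and the reads were assigned to 1 reference; how reads of other alleles were counted was not tested, and the labels do not state the class II haplotypes of the animals.

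**Figure D4:**
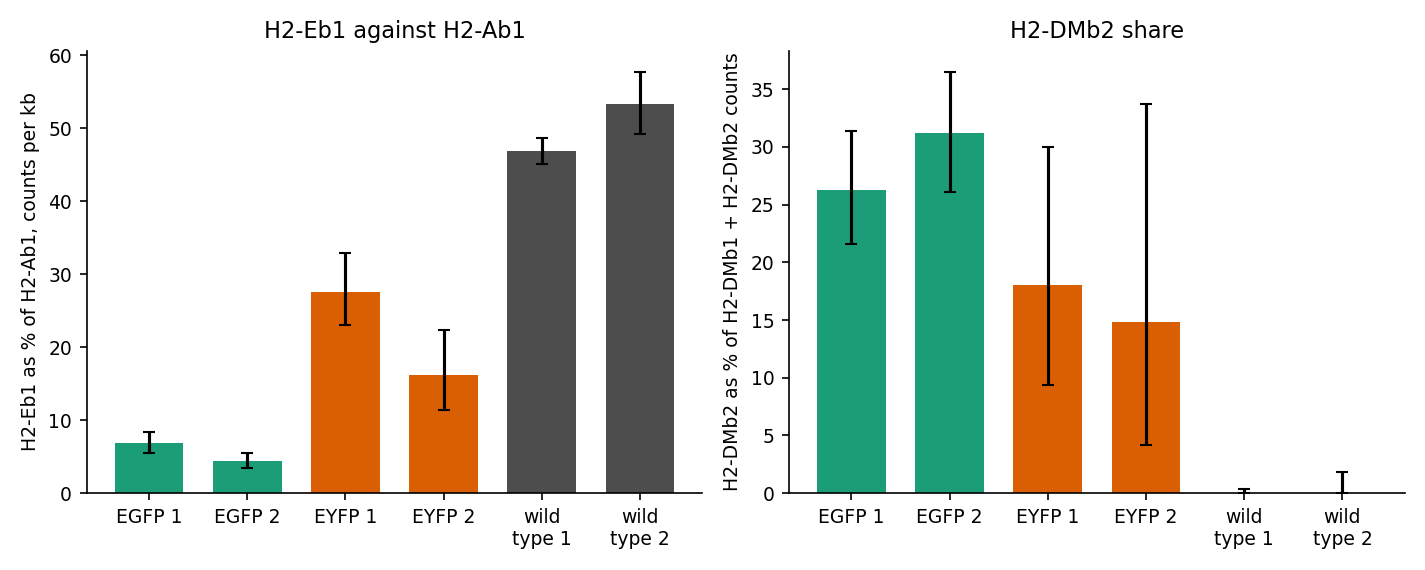
Left, H2-Eb1 as a percentage of H2-Ab1 (counts per kb of transcript) in each library; right, H2-DMb2 as a percentage of the summed H2-DMb1 and H2-DMb2 counts. Error bars are 95% exact counting intervals. H2-Eb1 is lowest in EGFP (6.82% and 4.35%), and H2-DMb2 is at 0 in both wild-type libraries.

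The wider pathway was read from 5 lists, of which 26 of the 33 genes with a row passed the filter. Between EYFP and EGFP cells 6 of the 26 were lower and 3 higher, where 19.4% and 16.8% of all genes tested were. These 26 include H2-DMb2, kept by the filter through EGFP alone. The Ciita docking complex had 1 of 7 lower and 0 higher. That gene was Rfxank, a subunit of the RFX complex, with 34.5 and 34.1 CPM in EGFP and 18.7 and 18.4 CPM in EYFP, a fall by 0.89 ± 0.14 on the log2 scale (edgeR adjusted p = 0.0031). Rfx5, the DNA-binding subunit, was at 21.5 and 21.8 against 18 and 20.6 CPM (adjusted p = 0.49). Of the 8 genes between interferon gamma and Ciita, 3 were lower and 1 higher. Among them, the receptor chain Ifngr1 fell by 1.06 and the transcription factor Irf1 by 0.47 on the log2 scale (edgeR adjusted p = 0.0096 and 0.036), and the kinase Jak1 rose by 0.67 (0.01). Of the 6 processing genes, Lgmn, an endopeptidase of late endosomes, fell by 1.34 and the protease Ctsl rose by 1.24. Ctss, the protease that trims the invariant chain in professional presenting cells, was at 26.2 and 23 against 19 and 6.06 CPM and did not pass (adjusted p = 0.2). In the list of costimulation and turnover 4 of 7 genes were tested. Icosl, a ligand for the T cell receptor Icos, rose from 21.3 and 26.4 to 116 and 85.8 CPM (2.07 ± 0.20, adjusted p = 0.00048). Cd80 and Cd86, the main costimulatory ligands, stood at 0 to 0.564 CPM in all 6 libraries. Of the 7 class I genes, chosen after their values were seen, the light chain B2m, the peptide transporter Tap1, the proteasome subunits Psmb8 and Psmb9 and the transactivator Nlrc5 were lower. The class I heavy chains H2-K1 and H2-D1 missed the threshold, at -0.36 (adjusted p = 0.18) and 0.11 (0.65) on the log2 scale. Nlrc5, a relative of Ciita, was at 10.6 and 4.4 CPM in EGFP and at 0.987 and 0.841 CPM in EYFP (-3 ± 0.49, edgeR adjusted p = 0.0032).

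Against wild type, EGFP cells had 11 of the 26 lower and 6 higher, where 21.9% and 19.6% of all genes tested were. EYFP cells had 12 lower and 7 higher, where 33.5% and 27.1% were. In each sorted group the genes called higher include H2-DMb2 and Cd40. Both of these passed the filter on low counts only through sorted cells, where they are high, so their calls are no evidence of a rise. Interferon gamma signalling had 4 of 8 lower in EGFP and 6 of 8 in EYFP. Ifngr2 stood at 180 and 246 CPM in wild type, 43.2 and 63.1 CPM in EGFP and 32 and 40.7 CPM in EYFP (log2 fold changes -2 ± 0.25 and -2.55 ± 0.25). Of the processing genes 4 of 6 were lower in each sorted group, among them Ctss at 98 and 133 CPM in wild type and Ifi30, the lysosomal thiol reductase, at 221 and 225 CPM against 83.9 and 93.9 CPM in EYFP. Ctsl was higher in both. Cd40, a receptor for T cell help, had 2 counts over both wild-type libraries. Its level was 19.9-fold higher in EGFP (95% counting interval 5.02 to 172) and 40-fold higher in EYFP (10.7 to 337). These intervals pool the 2 libraries of each group and cover counting error only, so they are no test of a rise.

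Of the cells that carry class II constitutively, B cells and dendritic cells had low marker levels. B and plasma cell markers summed to 1.45 to 2.27 CPM in the sorted libraries and to 9.66 and 7.90 CPM in wild type. Cd79a and Ms4a1, which mark B cells, were at 0 to 0.583 CPM throughout. Dendritic cell markers summed to 1.45 to 12.8 CPM, with 6 or 7 of the 8 under 1 CPM in every library, and Flt3 at 0 in both EGFP libraries and at most 0.482 CPM elsewhere. Itgax, an integrin that intraepithelial lymphocytes also carry, led the list at 7.99 and 9.95 CPM in wild type and 5.36 CPM in EYFP replicate 1. Xcr1, a chemokine receptor, was at 1.21 and 0.254 CPM in EGFP and 3.24 and 2.78 CPM in EYFP. It had 10 and 3 counts in EGFP and 46 and 33 counts in EYFP. It passed the filter on low counts only through EYFP, where it is high, so no test is given. In the wild-type pair the sums of the B cell, dendritic cell and macrophage lists were 9.66, 11 and 29.2 CPM in replicate 1 and 7.90, 12.8 and 28.2 CPM in replicate 2. Most of these sums came from Igj (7 and 5.01 CPM), Itgax and Itgam (21.2 and 18.9 CPM), so they say little about the other markers. Summed class II levels in the same libraries were 3420 and 380 CPM. Whether these cells have a part in the wild-type gap was not tested.

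The summed macrophage list was highest in EYFP replicate 1, at 270 CPM against 20.3 CPM in EYFP replicate 2 and 20.7 and 51.7 CPM in EGFP. Lyz2, a lysozyme of myeloid cells, was at 207 against 0.168 CPM, and Csf1r, their growth factor receptor, at 19.3 against 0 CPM. The list did not move as one. C1qa, a complement subunit, had 4.1 and 6.76 CPM in EGFP and a higher level in both EYFP libraries, 32.9 and 15.1 CPM (log2 fold change 2.13, edgeR adjusted p = 0.01). The integrin Itgam was level within EYFP, at 2.26 and 2.27 CPM, and lower than in EGFP (-2.38, adjusted p = 0.00055). All 7 class II genes were higher in EYFP replicate 1 than in replicate 2, by 1.05-fold for Ciita to 5.76-fold for H2-Aa. In EGFP replicate 1 was also the higher for all 7, by 1.22-fold for H2-Ab1 to 2.71-fold for Ciita. The part of these cells in the EYFP levels was not tested. Without EYFP replicate 1 the log2 fold changes against EGFP were larger, such as -4.66 for H2-Aa and -4.58 for Cd74, against -2.14 and -2.93 without replicate 2. Lymphocyte markers such as Ptprc, Cd3e and Cd3g summed to 13.4 to 33.7 CPM in the sorted libraries and 490 to 549 CPM in wild type; their part in the differences from wild type was not tested. Enterocyte markers summed to 699 to 1410 CPM in the sorted libraries, against 22500 and 36300 CPM in wild type, and their part was not tested either. Crypt stem cell markers summed to 1350 and 1110 CPM in EGFP and 583 and 593 CPM in EYFP, and their part was likewise not tested. Enteroendocrine markers such as Neurog3, Neurod1 and Chga summed to 8640 and 12900 CPM in EGFP and to 59300 and 44000 CPM in EYFP. They summed to 488 and 550 CPM in wild type, and their part in the class II levels was not tested.

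**Figure D5:**
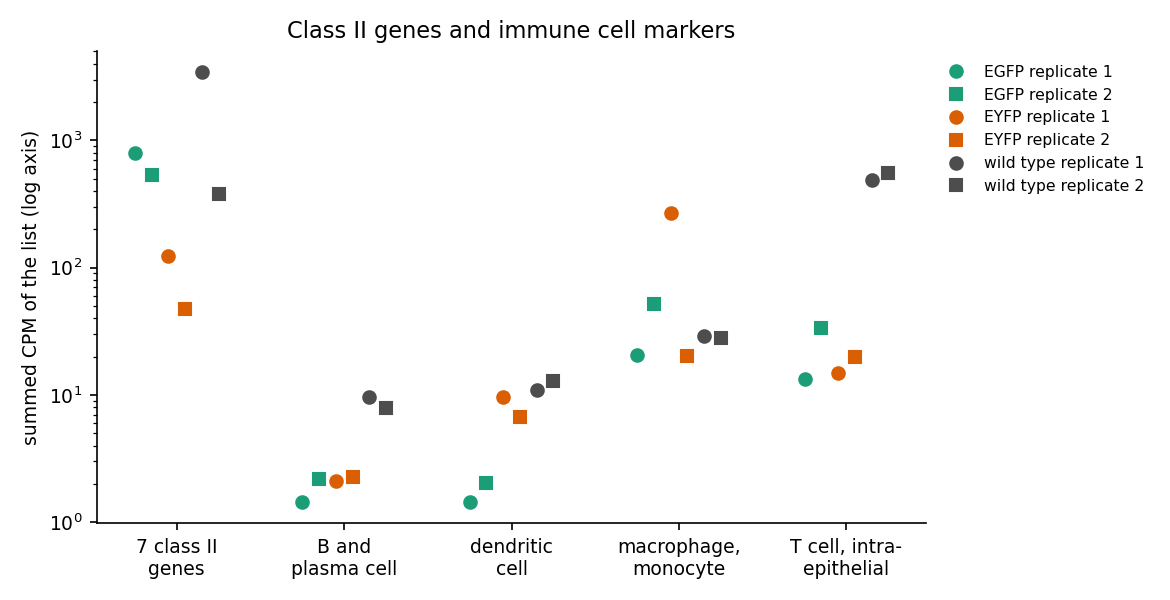
Summed CPM (log axis) of the 7 class II genes and of 4 immune marker lists in each library. Wild-type replicate 1 stands at 3420 CPM for class II with immune sums near those of replicate 2, and EYFP replicate 1 is the highest for the macrophage list at 270 CPM.

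Outside the lists, the genes whose pattern over the 6 libraries was most like the mean of the 7 class II genes were Fam120a, Ide, Btf3, Snrpa and Mrpl38, with Pearson r of 0.988 to 0.996 on log2 CPM. Of 9629 candidates, 97 had r over 0.95. The likeness is one of shape on the log scale, not of size. Nor was the order of the libraries the same: Ide was higher in wild-type replicate 2 than in EGFP replicate 2, whereas H2-Ab1 was lower. Ide, the insulin-degrading enzyme, stood at 97.2 and 74.2 CPM in EGFP, 58.1 and 48.3 CPM in EYFP, and 150 and 87.6 CPM in wild type. Its wild-type gap was 1.71-fold, the largest of the 5. The r of the class II genes to the mean of the 7 was 0.971 to 0.996 for 6 of them and 0.813 for H2-Eb1. Each class II gene is part of that mean, so these values cannot be set against those of the outside genes.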

How the data were processed

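Estimated counts, not all of them whole numbers, are what the authors give per gene and library. In the authors' second deposited table, each library has a signal, which equals the count over a size factor. It also has the deposited fold, a linear ratio of the second-named group over the first, and the authors' adjusted p-value. The tools named are RSEM 1.3.1, Bowtie2, FastQC 0.11.8 and DESeq2 1.26.0, with mm10 as the build, per the submitters' processing notes, which give no settings here. Per the labels' protocols, libraries were TruSeq RNA, read as single ends of 50 bases.

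Counts were rounded, filtered with filterByExpr, scaled by TMM and tested with edgeR 4.0.16 (quasi-likelihood, robust) as 3 group means over 6 libraries (residual degrees of freedom 3). P-values were adjusted by Benjamini-Hochberg over 13935 genes at 0.05. SE was derived from F. On simulated data for EYFP against EGFP (13757 genes), 98.5% of 200 genes changed 4-fold were recovered, with 14 false calls. The simulation gave every gene the same spread in every group, without gaps like those of the class II genes in wild type. It therefore does not show how often a 4-fold change in the class II genes would be called. Levels per kb used GENCODE M21 transcript lengths. DESeq2 1.42.0 served as an alternative. Named were all 7 genes, pathway genes past the test, leading markers and the 5 genes of most similar pattern; Rfx5, Socs1, Ctss, Cd80, Cd86, Lyz2, C1qa, Itgam, Xcr1, the class I and the sex-linked genes were chosen after their values were seen. Members and lists were chosen with earlier results of these data known. Some genes of these lists are not reported here by name.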

Additional observations from a re-analysis of the deposited data

How the results depend on the processing

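The number of class II genes called lower depended on the fit. For EYFP against EGFP it was 1, and it was 2 with DESeq2 size factors, 0 with no filter, 4 in the DESeq2 Wald test, 5 with only the 4 libraries compared and 0 to 5 when 1 library was left out. For EGFP against wild type it was 1, and it was 0 with no filter, 0 with only the 4 libraries compared and 0 to 5 when 1 library was left out. For EYFP against wild type it was 5, and it was 1 with no filter, 3 with only the 4 libraries compared, 7 in the DESeq2 Wald test and 1 to 7 when 1 library was left out. No gene was called higher in any of these fits. The share of all genes called lower is not given for most of these fits, so the changes in number cannot be set against it. With the replicate number as a block, the numbers lower were 3, 2 and 7; same-numbered libraries deviated together little (r = 0.022, 0.096 and 0.014 between groups), and the labels tie them to no shared animal or day, so the number was not taken as a pairing, although all 7 genes were higher in replicate 1 than in replicate 2 of each group. Pathway genes lower when 1 library was left out ranged from 3 (without EYFP replicate 2) to 7 for EYFP against EGFP, where all libraries gave 6, and from 5 (without EGFP replicate 1) to 10 for EGFP against wild type, where all gave 11. Those higher in the latter ranged from 3 (without wild-type replicate 2) to 7, where all gave 6. DESeq2 size factors moved the median of all genes by 0.11 (log2) for EYFP against wild type, with no change of direction among the 7. Ciita in EYFP and the low accessory chains rest on few counts, which limits their precision; the causes of the changed calls were not tested beyond the spread and the libraries named.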
